A study of Mus musculus with 36 samples.

Results

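Potassium channel genes were taken as all protein-coding genes whose symbol starts with Kcn followed by a letter and a digit, except Kcng4. The rule found 80 genes among the 37315 genes of the count table. Of these, 61 reached a mean of 1 CPM (counts scaled to a common library size) over all libraries and are called expressed here, and 19 stayed under it. Just above the limit were Kcne4 at 1.1 CPM, Kcnj14 at 1.46 CPM and Kcnj8 at 1.59 CPM, and just below it Kcnq1 at 0.896 CPM, Kcnj13 at 0.845 CPM and Kcnk5 at 0.729 CPM. Kcnk16 had no count in any library.

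Messenger RNA had been sequenced from 4 brain regions of wild-type (WT) BL-6 mice. CA1 and CA3 are fields of the hippocampus, and LEC and MEC are the lateral and the medial part of the entorhinal cortex, which feeds cortical signals into it. Every region has 3 home cage libraries, 3 of context exposure without shock and 3 of foot shock, here called fear, or 36 libraries in 12 groups. Tissue was collected 90 minutes after behaviour, and mice of all 3 conditions lived alone and had 5 days of handling, 3 minutes on each. The age of the mice, the number of mice behind a library and any pooling are not given in the labels, so the p-values rest on a spread among libraries that may be partly technical, and libraries of different regions may share mice.

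Potassium channels let potassium ions leave a cell and so pull the membrane back towards rest. Voltage-gated (Kv) channels open on depolarisation and shape the action potential, inward rectifiers and two-pore-domain channels set the resting potential, and calcium- and sodium-activated channels produce the slower after-hyperpolarisation. In hippocampal and entorhinal neurons these channels set how fast, how long and how regularly a cell fires, while in glia inward rectifiers buffer the potassium that firing neurons release.

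Library totals were 21871412 to 68974340 counts with a median of 28098007, and the 80 genes took 0.266 to 0.425% of the counts of a library. Markers of the regions were in their labelled places only in part. The summed level of 7 CA3 pyramidal markers was 381 to 473 CPM in CA3 and at most 215 CPM in any other library, and 7 cortical layer markers summed to 266 to 466 CPM in LEC and MEC against 100 to 142 CPM in CA1 and CA3. The 6 CA1 pyramidal markers summed to 555 to 1620 CPM in CA1 and 113 to 422 CPM in CA3, but also to 687 to 1120 CPM in LEC and MEC. Dentate granule markers summed to 147 to 703 CPM in CA1 and 80.9 to 311 CPM in CA3, so both hippocampal dissections varied in how much of that list they held. Oligodendrocyte markers summed to 3480 to 13300 CPM in CA1 and CA3 and to 1120 to 3370 CPM in LEC and MEC. In such tissue, more cells of a type and more RNA per cell cannot be told apart.

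The upstream sequences of a pair of genes that rose in MEC after fear, described further on, are shown with their CpG dinucleotides. CpG content played no part in the choice of these genes. Kcnc1 encodes a fast delayed rectifier of fast-firing neurons and Kcnh5 an ether-a-go-go channel. The choice was limited to rising genes matched to a RefSeq start site (GRCm38.p6), with a single site used for each. Among those, Kcnc1 and Kcnh5 were the first in order of p whose 250 bases before the site lay in no annotated gene. The stretches are chr7:46396218-46396467 on the plus strand for Kcnc1 and chr12:75177333-75177582 on the minus strand for Kcnh5. Both run 5′ to 3′, with CpG dinucleotides in capitals.
Kcnc1: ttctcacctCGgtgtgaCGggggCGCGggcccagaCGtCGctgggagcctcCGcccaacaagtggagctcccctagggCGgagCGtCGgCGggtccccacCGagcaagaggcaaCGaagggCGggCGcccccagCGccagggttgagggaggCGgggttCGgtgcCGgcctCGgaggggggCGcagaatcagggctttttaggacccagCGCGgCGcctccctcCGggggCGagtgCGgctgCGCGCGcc
Kcnh5: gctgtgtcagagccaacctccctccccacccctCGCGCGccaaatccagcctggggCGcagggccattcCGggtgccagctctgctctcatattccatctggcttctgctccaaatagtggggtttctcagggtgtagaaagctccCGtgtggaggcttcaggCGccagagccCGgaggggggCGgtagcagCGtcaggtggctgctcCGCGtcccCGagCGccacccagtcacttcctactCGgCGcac
The Kcnc1 stretch held 30 CpG dinucleotides at a GC content of 74.4%, and the Kcnh5 stretch 16 at 65.6%. RefSeq promoter windows, which reach from 250 bases before to 50 bases after a start, were matched for 56 of the 80 genes (72 windows). The median window of potassium channel genes held 10 CpG dinucleotides at 58.3% GC, against 7 and 52.7% over all 32851 windows. Of the 15 genes that rose in MEC after fear, 9 were matched, and their 10 windows had a median of 20.5 CpG and 64.5% GC. Those genes were all expressed, while the other windows were not limited to expressed genes. Whether the difference goes with expression was not tested. The full cyclic-AMP response element TGACGTCA, which reads the same on both strands, was in 0 of the 72 windows and in 1.79% of all windows. The E-box CACGTG, also palindromic, was in 6.94% of the potassium channel windows and 7.15% of all windows. These matches describe letters in these windows and nothing about binding.

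Compared per length, the inward rectifiers had the highest summed level of all families in CA1, LEC and MEC, while in CA3 inward rectifiers and Kv1 genes overlapped. Levels between genes are given as RPKM, the CPM divided by the exon length in kilobases, as mean ± SD over the 9 libraries of a region. The 11 expressed inward rectifiers summed to 158 ± 17.5 RPKM in MEC, 133 ± 11.3 in CA1, 131 ± 10.5 in LEC and 109 ± 6.65 in CA3, or 19.7 to 27% of the summed RPKM of all expressed potassium channel genes. Kcnj10, the potassium-buffering channel of astrocytes and oligodendrocytes, led the family in CA1 (43.8 ± 4.96 RPKM), CA3 (44.6 ± 5.17) and MEC (46.9 ± 9.49). In LEC the leader was Kcnj3, a subunit of the G-protein-gated channels, at 29.5 ± 2.63 RPKM.

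Kv1 genes, which encode channels of axons and their initial segments, were at their highest summed level in CA3. By condition they were at 80.4 ± 20.7 RPKM in CA3 home cage, 127 ± 11.3 in context and 112 ± 19.2 in fear (SD, n = 3), where inward rectifiers were at 103 ± 4.62, 112 ± 4.62 and 113 ± 6.4. Over all 9 CA3 libraries they reached 106 ± 25.5 RPKM against 60.1 ± 11.3 in CA1, 66.2 ± 7.49 in LEC and 83.6 ± 15.3 in MEC, and Kcna1 led in each region with 81.6 ± 21.6 RPKM in CA3 and 30.8 ± 4.76 in LEC. Kv7 genes, which encode the M-current that holds back repetitive firing, summed to 94.3 ± 15.2 RPKM in CA3, 63 ± 10.5 in CA1, 48.8 ± 4.73 in LEC and 50 ± 4.81 in MEC. The silent Kv modifiers, which form no channel alone but alter Kv2 channels, were highest in the entorhinal regions, with 102 ± 11.6 RPKM in LEC, 73.2 ± 6.43 in MEC, 43.8 ± 4.73 in CA3 and 35.4 ± 7.01 in CA1. Kcnf1 led them in LEC (46 ± 7.81 RPKM) and MEC (34.7 ± 3.65), and Kcnv1 in CA1 (8.6 ± 2.03) and CA3 (18.7 ± 3.07).

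Kv3 genes, whose channels let neurons fire at high rates, summed to 77.1 ± 8.81 RPKM in MEC, 72.7 ± 5.85 in CA3, 59.3 ± 5.98 in LEC and 59.3 ± 8.57 in CA1. Kcnc2 led them in CA3 (25.4 ± 4.69 RPKM), LEC (19.6 ± 2.8) and MEC (23.9 ± 3.34). Kv4 genes, which carry the transient A-type current of dendrites, ranged from 52.5 ± 10.6 RPKM in CA1 to 33.8 ± 3.11 in MEC. Their leader was Kcnd2 in CA1 (43.5 ± 10.3 RPKM), CA3 (27.6 ± 5.94) and MEC (19.2 ± 2.43), and Kcnd3 in LEC (18.5 ± 2.02). Kcnk1 led the 8 expressed two-pore-domain genes in every region, with 24.6 ± 1.33 RPKM in LEC and 37.8 ± 6.92 in CA1. Kcnn2, a small-conductance calcium-activated channel of the after-hyperpolarisation, led its family at 4.48 ± 0.99 RPKM in LEC to 9.93 ± 1.27 in CA1. In the smaller families, Kcne1l led the KCNE beta subunits everywhere at 1.13 ± 0.807 to 2.26 ± 0.709 RPKM. Among the EAG, ERG and ELK genes Kcnh7 led in CA1 and MEC and Kcnh1 in CA3 and LEC, and among the sodium-activated genes Kcnt2 led in CA1 and CA3 and Kcnt1 in LEC and MEC.

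**Figure D1:**
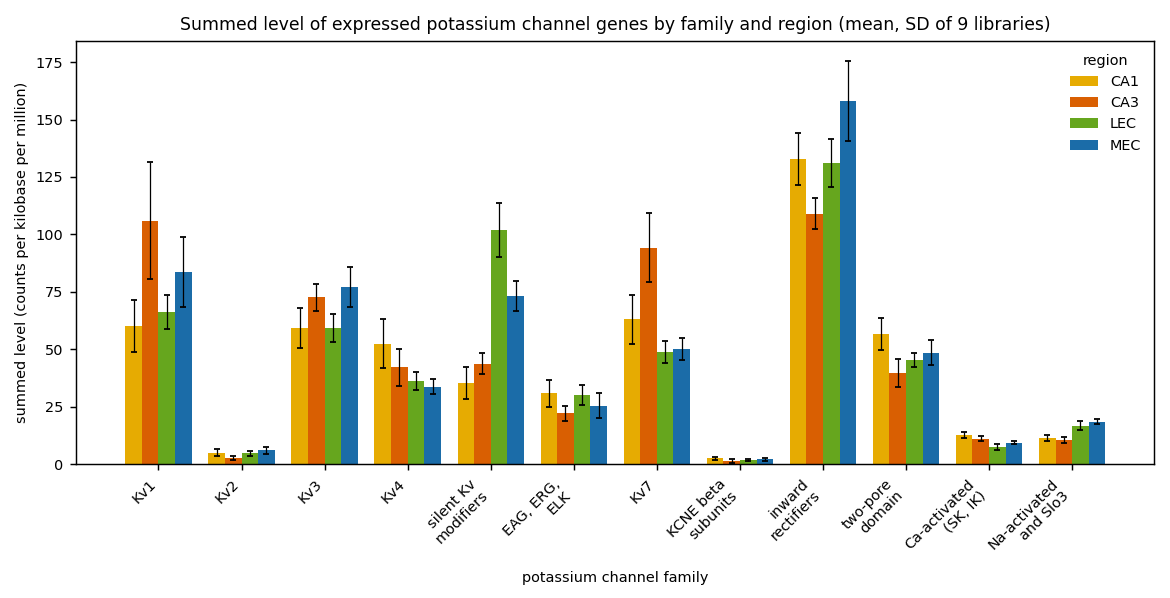
Summed level of the expressed potassium channel genes of each family (RPKM, vertical axis) in the 4 regions; bars are means and error bars the SD of 9 libraries over 3 conditions. Inward rectifiers are highest in CA1, LEC and MEC, Kv1 and Kv7 genes are highest in CA3 and silent Kv modifiers in LEC.

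Most potassium channel genes differed between regions. Differences between regions are log2 fold changes of CPM (a difference of 1 is a doubling) from 1 edgeR quasi-likelihood model of all 36 libraries, averaged over the 3 conditions and given with their standard error (SE). Genes are called where the p adjusted over all 17875 genes tested (Benjamini-Hochberg) is under 0.05. LEC and MEC together were higher than CA1 and CA3 together for 32 of the 61 expressed genes and lower for 15, where 25.5% of all genes tested were called higher and 25.4% lower. The members' median difference was 0.26, against -0.0176 for all genes. CA3 was higher than CA1 for 17 genes and lower for 22 (16.4% and 14.6% of all genes), with a median of -0.22 against -0.0241. MEC was higher than LEC for 13 and lower for 8 (8.8% and 8.59% of all genes), with a median of 0.0599 against 0.0114. Under the expression limit, Kcnj13, Kcnj5, Kcnk5 and Kcnq1 were also called between the entorhinal cortex and the hippocampal fields, and Kcnk5 and Kcnq1 between MEC and LEC. These genes were named after their values were seen.

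The largest difference in favour of the entorhinal cortex was that of Kcnf1. It ranged over 167, 229 and 271 CPM (lowest, median and highest of 9 libraries) in LEC and 135, 166 and 192 CPM in MEC. In CA1 it was at 14.9, 28.5 and 46.1 CPM and in CA3 at 7.41, 20.2 and 25.8 CPM. No entorhinal library of Kcnf1 overlapped a hippocampal one, and the log2 difference was 2.98 (SE 0.14, adjusted p = 7.59e-17 by edgeR). Kcng1, another silent modifier, was at 57.7 to 101 CPM in LEC and 32.3 to 69.1 CPM in MEC against 2.31 to 28.3 CPM in CA1 and 4.5 to 20.3 CPM in CA3, again without overlap (2.26, SE 0.20). Kcnc4, a Kv3 gene with a transient current, was at 45.4 to 105 CPM in the entorhinal regions and 9.12 to 42.5 CPM in the hippocampal ones (1.97, SE 0.13). Kcna5 was low throughout, with medians of 4.89 (LEC), 1.84 (MEC), 0.587 (CA1) and 0.252 CPM (CA3) (2.71, SE 0.26). The strong inward rectifier Kcnj12 (1.93, SE 0.15), the ELK gene Kcnh4 (1.91, SE 0.16), the ERG gene Kcnh6 (1.75, SE 0.16) and Kcna3 (1.65, SE 0.14) were also among the largest differences on that side.

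Fewer genes were higher in the hippocampal fields. Kcng2, a silent modifier, was at 12.8, 14.5 and 20.6 CPM in CA3 and 2.98, 9.12 and 12.1 CPM in CA1, but at 1.51, 2.06 and 6.58 CPM in LEC and 0.583, 1.1 and 1.72 CPM in MEC. All 9 CA3 libraries lay above all other libraries, and the entorhinal level was lower by -2.64 (SE 0.19). Kcnj6, a G-protein-gated subunit, had medians of 55.7 CPM (CA1), 51.5 (CA3), 21.7 (LEC) and 18.6 (MEC) (-1.25, SE 0.11). Kcnd2 had medians of 256 CPM in CA1, 142 in CA3, 103 in MEC and 76.4 in LEC (-1.06, SE 0.07). Kcnn2 (-0.88, SE 0.07), Kcns2 (-0.86, SE 0.10), Kcnq5 (-0.78, SE 0.09) and Kcns3 (-0.70, SE 0.10) were also lower in the entorhinal cortex. For Kcnq5 and Kcns3 that average hides 1 region: Kcnq5 was high in CA3 alone and Kcns3 low in LEC alone.

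CA3 and CA1 differed most in Kcnq5. Kcnq5, an M-current subunit, was at 114, 249 and 332 CPM in CA3, against 31.8, 62.9 and 86.5 CPM in CA1, 52.4, 70.8 and 91 CPM in LEC and 51.8, 78.6 and 87.5 CPM in MEC. All 9 CA3 libraries were above the other 27, while the remaining regions overlapped (CA3 against CA1 2.11, SE 0.13, adjusted p = 3.98e-13 by edgeR). Kcnk4, a mechanically gated leak channel, had medians of 10.2 CPM in CA3 and 2.53 CPM in CA1 (1.90, SE 0.17). Kcnv1 (1.19, SE 0.15), Kcna1 (1.14, SE 0.11), Kcng2 (1.03, SE 0.25), Kcnh1 (0.98, SE 0.14), Kcnd3 (0.98, SE 0.13) and Kcnj16, a glial and epithelial partner of Kcnj10 (0.97, SE 0.09), were higher in CA3 too. On the other side, the ERG gene Kcnh7 was at 93.7, 178 and 233 CPM in CA1 and 22.4, 35.3 and 63.1 CPM in CA3, where every library was below the libraries of all other regions (-1.97, SE 0.16). The inward rectifiers Kcnj2 (-1.15, SE 0.23), Kcnj4 (-1.14, SE 0.23) and Kcnj12 (-1.03, SE 0.21) were all lower in CA3. So were Kcna5 (-1.50, SE 0.40), the ELK gene Kcnh3 (-1.13, SE 0.23), the acid-sensitive leak channel Kcnk3 (-1.06, SE 0.14) and Kcne1l (-1.01, SE 0.20). Kcna5 lost its call without 2 of the 9 sets of same-numbered libraries (adjusted p up to 0.0534).

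MEC and LEC were closer to each other. Kcns3, a silent modifier, was at 10.2, 13.5 and 15.2 CPM in MEC and 2.42, 4.03 and 7.54 CPM in LEC, with every LEC library below all other 27 (MEC against LEC 1.46, SE 0.15, adjusted p = 1.5e-08 by edgeR). Kcnj11, the pore of the channel closed by ATP, had medians of 9.58 CPM in MEC and 4.21 CPM in LEC (1.05, SE 0.24). Kcnj10 (0.68, SE 0.09), Kcnk4 (0.65, SE 0.17), the calcium-activated Kcnn1 (0.61, SE 0.13) and Kcnj12 (0.60, SE 0.19) were also higher in MEC. LEC was higher for Kcng2 (-1.39, SE 0.28), Kcna5 (-1.14, SE 0.31), Kcnv1 (-0.95, SE 0.14), Kcnh4 (-0.79, SE 0.21), Kcnh1 (-0.74, SE 0.14), the two-pore gene Kcnk13 (-0.72, SE 0.17), Kcnd3 (-0.71, SE 0.13) and Kcnj16 (-0.27, SE 0.09). Kcnd3 was at 152, 181 and 209 CPM in LEC, above all 27 other libraries. Without single sets of libraries the calls of Kcnj12 (adjusted p up to 0.159) and Kcnj16 (up to 0.0985) were lost.

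Over the 61 genes, the mean level was highest in MEC for 20, in LEC for 17, in CA1 for 13 and in CA3 for 11. The fold between the highest and the lowest region had a median of 2.27 (1.11 to 15), was at least 2 for 39 genes and at least 4 for 13. All 9 libraries of the highest region were above the other 27 for 3 genes, Kcnq5, Kcng2 and Kcnd3, where 2.35% of all genes tested had 1 such region. All 9 libraries of the lowest region were below the other 27 for 6: Kcnh7, Kcnj9, Kcnk2 and Kcnk3 in CA3, Kcnj16 in CA1 and Kcns3 in LEC (1.24% of all genes). For all other genes, at least 1 library of the highest region, and 1 of the lowest, lay within the range of the remaining regions. The part of the oligodendrocyte and dentate markers, which also differed between regions, in these differences was not tested.

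**Figure D2:**
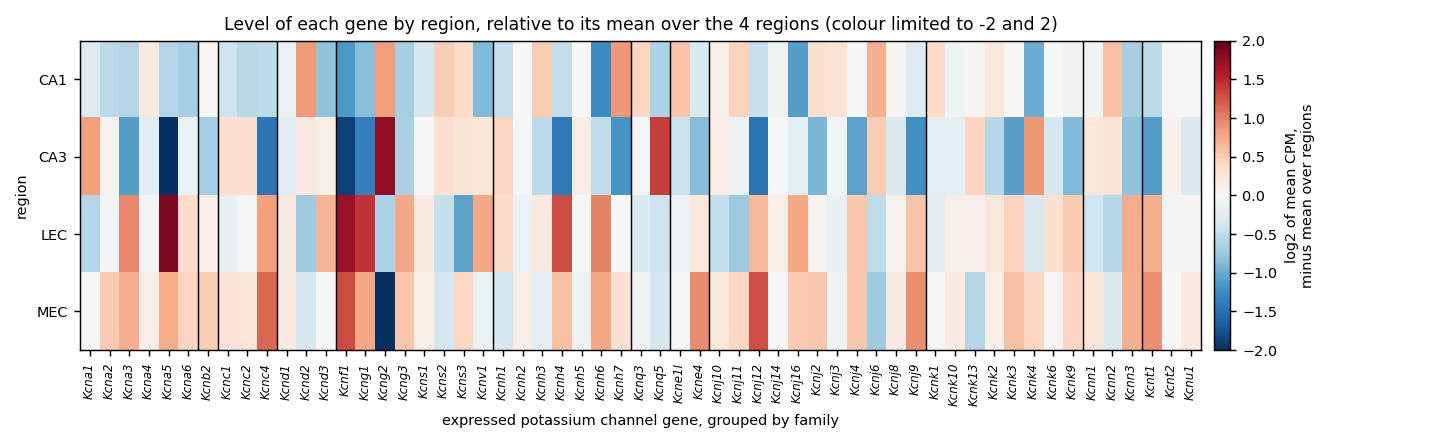
Level of 57 of the 61 expressed genes (columns, grouped by family between the lines) in the 4 regions (rows), as log2 of the mean CPM of 9 libraries minus the gene's mean over regions; red is above and blue below that mean. Kcnf1, Kcng1 and Kcna5 are red in LEC and MEC, Kcnq5 and Kcng2 in CA3 and Kcnh7 in CA1.

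The partners of these channels, from a list of 23 accessory genes, also differed between regions. Of 21 tested, 8 were higher and 10 lower in the entorhinal cortex than in the hippocampal fields (25.5% and 25.4% of all genes). Dpp10, a Kv4 partner, was higher there by 3.08 (SE 0.08), Kcnip3 by 1.32 (SE 0.06), while Kcnab2, a Kv1 beta subunit, was lower by -1.59 (SE 0.11) and Kcnip2 by -1.55 (SE 0.06). Between CA3 and CA1 5 were higher and 5 lower (16.4% and 14.6% of all genes), with Kcnab1 (-1.25, SE 0.11), Kcnab3 (-0.88, SE 0.12) and Kcnip4 (-0.57, SE 0.08) lower in CA3 and Lgi1, a secreted Kv1-associated protein, higher (0.64, SE 0.10). Between MEC and LEC 5 were higher and 2 lower (8.8% and 8.59% of all genes). Abcc8, the sulfonylurea receptor that pairs with Kcnj11, was higher in MEC by 1.12 (SE 0.12), as were Lrrc55 (1.43, SE 0.22) and Kcnab3 (0.91, SE 0.12), and Kcnip2 was lower (-0.67, SE 0.09).

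A part of the potassium channel genes was higher in MEC after fear than in home cage. Conditions were compared within a region by edgeR's quasi-likelihood test on its 9 libraries, with adjusted p over all genes tested there. Against home cage, 15 of the 61 expressed genes rose in MEC after fear, and none fell. Of all genes tested in MEC, 5.68% were called higher and 3.88% lower. For the fall, the count at an unadjusted p under 0.05 was 2, and for the rise 27, where 14.5% of all genes were lower and 14.5% higher. The lower ones were Kcnc2 at -0.29 and Kcng1 at -0.49, named after their values were seen. DESeq2 called 0 lower and 17 higher. The median log2 change of the 61 genes was 0.29, against -0.0146 for all genes. For context against home cage that median was 0.24, and for fear against context 0.0472 (-0.0225 and 0.0035 for all genes). In 20 genes all 3 fear libraries lay above all 3 home cage libraries (12% of all genes tested), and in 2 all lay below (19.4% of all genes).

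The Kv1 genes gave the smallest p-values. Kcna2 (ENSMUSG00000040724, chromosome 3, 107101146 to 107115005), an axonal delayed rectifier, was at 45.7, 57.2 and 51.3 CPM in home cage, 90.6, 84.3 and 83.7 CPM in context and 105, 90.6 and 89 CPM in fear. Context and fear libraries overlapped, and both were above home cage (fear 0.93, SE 0.10, adjusted p = 0.000307; context 0.79, SE 0.10, adjusted p = 0.00692, both by edgeR). Kcna1 (ENSMUSG00000047976, chromosome 6, 126640397 to 126646384), its frequent partner in the same tetramer, was at 152, 156 and 150 CPM in home cage, 266, 216 and 239 in context and 267, 243 and 298 in fear. Here too home cage stood below all other libraries (fear 0.86, SE 0.10, adjusted p = 0.000439; context 0.69, SE 0.10, adjusted p = 0.009, edgeR). The other 4 Kv1 genes were not called.

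Kcnc1 (ENSMUSG00000058975, chromosome 7, 46396497 to 46438704), a Kv3 gene whose upstream sequence is shown above, was at 119, 134 and 142 CPM in home cage, 169, 166 and 185 in context and 203, 187 and 216 in fear. Its fear and home cage libraries were separate (0.66, SE 0.09, adjusted p = 0.00142), and context lay between them (against home cage 0.44, adjusted p = 0.0529, edgeR).

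Kcnq3 (ENSMUSG00000056258, chromosome 15, 65986387 to 66286642), an M-current subunit, was at 32, 40.8 and 35.9 CPM in home cage, 56.3, 55.9 and 53 in context and 66.7, 51.9 and 50.1 in fear. Context and fear libraries overlapped, and both lay above home cage (fear 0.68, SE 0.12, adjusted p = 0.00591; context 0.64, SE 0.12, adjusted p = 0.0353, edgeR). Kcnh5 (ENSMUSG00000034402, chromosome 12, 74897220 to 75177332) was low, at 1.53, 2.38 and 2.44 CPM in home cage, 3.55, 4.06 and 5.87 in context and 5.29, 11.5 and 4.28 in fear. Its rise of 1.76 (SE 0.35, adjusted p = 0.011, edgeR) was the largest of the 15, and fear replicate 2 was the highest library. Kcnk4 (ENSMUSG00000024957, chromosome 19, 6923966 to 6934515) was at 5.29, 4.38 and 6.8 CPM in home cage, 5.52, 6.32 and 7.58 in context and 8.89, 10.2 and 11.7 in fear. Only the fear libraries stood apart (0.93, SE 0.20, adjusted p = 0.0125, edgeR). Kcnk4 shares its span with Catsperz on the same strand, so its counts are uncertain. It lost its call without fear replicate 3 (adjusted p = 0.0725) or without home cage replicate 2 (adjusted p = 0.0527).

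A further 7 called genes came from 6 families. They were Kcnk1 (0.47, SE 0.10), Kcnq5 (0.47, SE 0.11), Kcnd2 (0.38, SE 0.09), Kcnj11 (0.96, SE 0.24), the ether-a-go-go gene Kcnh1 (0.72, SE 0.18), the silent modifier Kcns2 (0.48, SE 0.12) and Kcnj10 (0.53, SE 0.15), with edgeR adjusted p of 0.0127 to 0.0469. Kcnj11 was at 5.25, 6.2 and 10.3 CPM in home cage, 5.6, 7.16 and 9.58 in context and 12.7, 14.1 and 15 in fear, so that only fear stood apart. Kcnj10 was the 1 called gene whose groups overlapped: home cage replicate 1 was at 267 CPM and the lowest fear library at 255. By family, 2 of 6 Kv1, 2 of 4 Kv3, 1 of 3 Kv4, 2 of 4 Kv7, 2 of 7 EAG, ERG and ELK, 2 of 11 inward rectifier, 2 of 8 two-pore and 1 of 8 silent modifier genes rose. No KCNE, calcium-activated or sodium-activated gene was called.

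**Figure D3:**
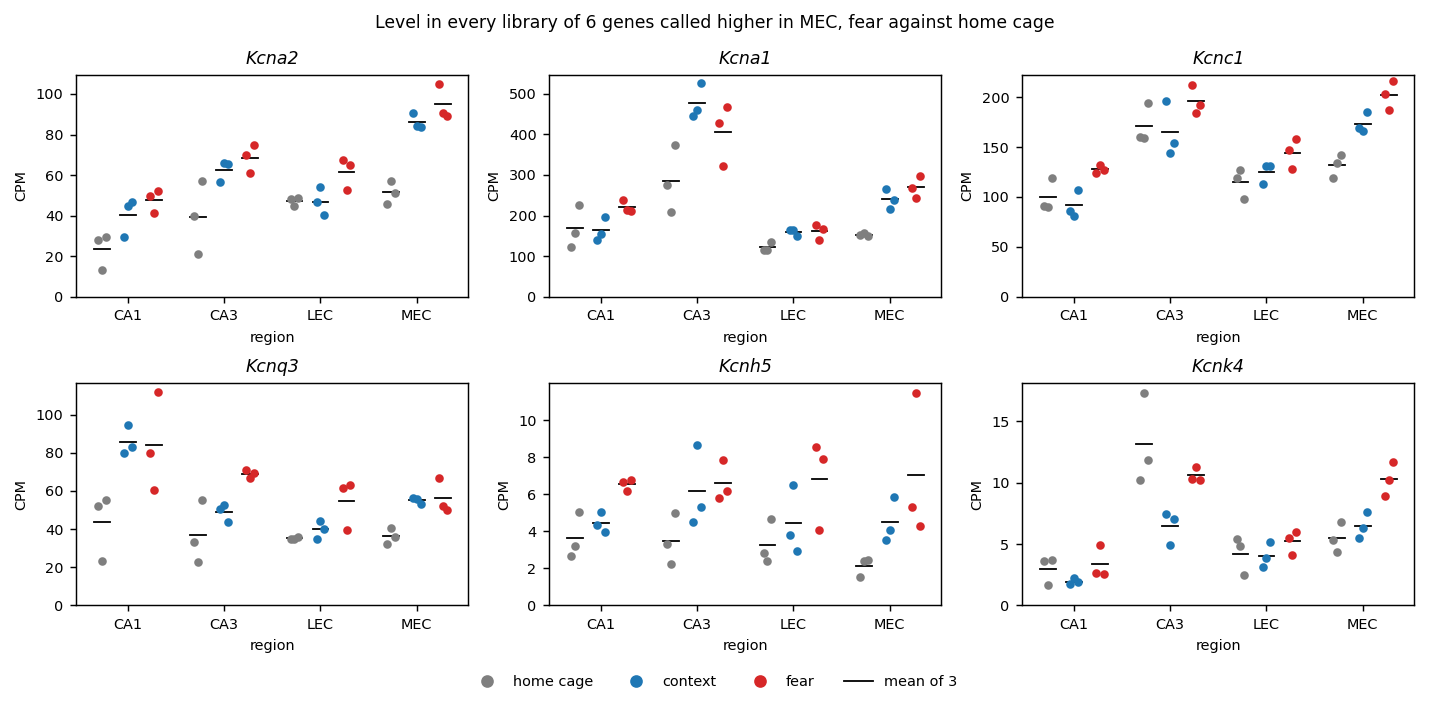
CPM (vertical axis) of 6 genes called higher in MEC after fear, in every library of the 4 regions; each point is 1 library, coloured by condition, and lines are means of 3. In MEC all red fear points lie above all grey home cage points in each panel, as for Kcna2 at 89 to 105 against 45.7 to 57.2 CPM.

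Other cell types moved in the same libraries. Calls after fear in MEC took in 5 of 9 oligodendrocyte markers, all higher, and their sum was 1660 to 2360 CPM in home cage, 2350 to 2730 in context and 2420 to 3370 in fear. Of 7 endothelial markers 3 rose (70.4 to 78.3 CPM in home cage, 91.8 to 130 in fear), and of 9 interneuron markers 2 rose (713 to 779 CPM in home cage, 894 to 968 in fear). Of 7 cortical layer markers 2 were called higher, but only 3 had a log2 change above 0 (median -0.215). Their sum was 346 to 356 CPM in home cage and 382 to 466 in fear. Of 4 thalamus markers 1 was called higher and 2 were above 0 (30.8 to 36.9 CPM against 38.4 to 43.7). Of 9 meningeal and mural markers 1 was called lower, while 7 were above 0. Their sum was 272 to 316 CPM in home cage and 184 to 254 in fear. Of 7 astrocyte markers 2 fell, with sums of 5140 to 6030 CPM in home cage and 4990 to 5260 in fear. With the oligodendrocyte markers as a covariate, 3 of the 15 genes were called, among them Kcna2 and Kcnq3. Kcna1 was then at 0.81 (adjusted p = 0.0824), Kcnc1 at 0.75 (0.0796), Kcnh5 at 1.42 (0.324) and Kcnk4 at 0.70 (0.347, each an edgeR adjusted p). The part of the interneuron, endothelial, astrocyte, cortical layer, thalamus, meningeal and mural markers in these changes was not tested. Without fear replicate 2 or home cage replicate 2, 8 genes were called, without fear replicate 3 9, and without home cage replicate 3, the library with the highest total, 26. In the fit of all 36 libraries 4 were called, among them Kcna1, Kcnc1 and Kcnh5.

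Context without shock gave fewer calls in MEC. Against home cage 3 genes rose, Kcna2, Kcna1 and Kcnq3, with the values given above, and none fell; 0.497% of all genes were called higher and 0.0736% lower. At an unadjusted p under 0.05 there were 19 higher and 2 lower, against 8.5% and 6.87% of all genes, and DESeq2 called 11 higher and 0 lower. Fear and context share the home cage libraries, so both sets of changes rest in part on the same 3 libraries. Same-numbered context and home cage libraries of MEC deviated together, and a fit blocked on the replicate number called 12 genes higher and 1 lower. Kcnq3 lost its call without any 1 of 7 libraries (adjusted p up to 0.124), and without context replicate 1 only 1 gene was called. Between fear and context no gene was called by edgeR in MEC. Of the 61 genes 7 were higher and 3 lower at an unadjusted p under 0.05, where 7.79% and 6.89% of all genes were, and DESeq2 called 2. Without home cage replicate 3, 2 were called by edgeR. Among the smallest p were those of Kcnj11 (0.90, SE 0.24, adjusted p = 0.312) and Kcnk4 (0.67, SE 0.20, adjusted p = 0.312, edgeR).

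In CA3, potassium channel genes were called in both directions after context exposure. Against home cage 3 of 60 expressed genes tested rose and 5 fell, where 5.77% of all genes were called higher and 8.13% lower, so the members' shares were near those of all genes. The median change was -0.0195, against -0.00919 for all genes. The genes that rose were Kcna1 and both Kv4 genes of the highest level. Kcna1 was at 275, 209 and 373 CPM in home cage, 446, 460 and 527 in context and 429, 321 and 468 in fear (context 0.86, SE 0.23, adjusted p = 0.045, edgeR). Kcnd2 was at 100, 95.1 and 132 CPM in home cage and 133, 182 and 142 in context, so that the groups nearly touched (0.61, SE 0.18, adjusted p = 0.0476). Kcnd3 was at 96.1, 62.8 and 119 CPM in home cage and 132, 137 and 151 in context (0.71, SE 0.22, adjusted p = 0.0494). In all 3, home cage replicate 2 was the lowest library of its group.

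The genes that fell came from different families. Kcnh3, an ELK gene, was at 31.3, 66.3 and 28.9 CPM in home cage, 20, 8.79 and 10.4 in context and 33.1, 35 and 23.4 in fear (-1.56, SE 0.35, adjusted p = 0.045, edgeR). Kcnj4, an inward rectifier, was at 15.7, 32.4 and 15.8 CPM in home cage and 11.9, 4.36 and 4.35 in context (-1.51, SE 0.40, adjusted p = 0.0451). For both genes home cage replicate 2 was the highest library and context the lowest group. Kcnk4 fell by -0.89 (SE 0.23, adjusted p = 0.045) and the sodium-activated Kcnt1 by -0.81 (SE 0.23, adjusted p = 0.0465). Under the expression limit Kcnk12 was called lower as well, at 0.564, 1.59 and 0.47 CPM in home cage and 0.252, 0.163 and 0.117 in context.

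These CA3 calls rested on few libraries. All 8 were lost without any 1 of 7 of the 9 libraries, among them each fear library, which enters only through the shared spread, and without context replicate 2 and home cage replicate 2 together (adjusted p 0.293 to 0.353). In that last setting Kcnh3 was at -0.89, Kcnj4 at -0.87, Kcnk4 at -0.50, Kcnt1 at -0.53 and Kcnd2 at 0.34. Without context replicate 1 the count was 19 and without home cage replicate 3 21. With the dentate granule markers as a covariate none was called, with offsets for GC content and length 1, in the fit of all 36 libraries 20 and by DESeq2 18. The 6 CA1 pyramidal markers summed to 178 to 422 CPM in CA3 home cage, 113 to 193 in context and 337 to 405 in fear. Of 5 blood markers 4 fell (32.4 to 58.4 CPM in home cage, 9.04 to 19.7 in context), and of 7 microglial markers 2 fell (235 to 364 against 191 to 229 CPM). Of 9 meningeal and mural markers 2 were called lower and 1 higher, and of 9 interneuron markers 1 in each direction. The astrocyte, dentate granule and CA3 pyramidal lists had 1 marker called lower each. The choroid plexus, CA2 pyramidal and cortical layer lists had 1 called higher each. Apart from the dentate granule covariate, the part of these lists in the changes was not tested.

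**Figure D4:**
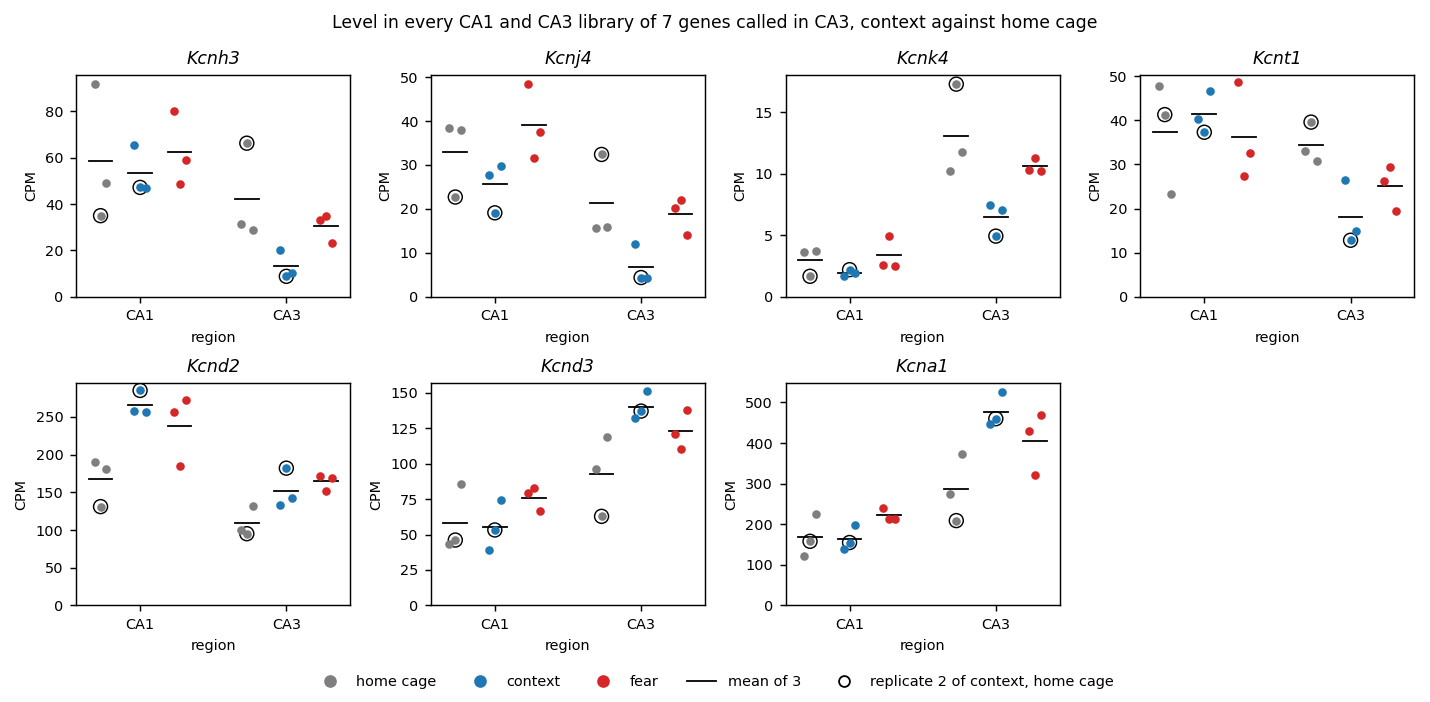
CPM (vertical axis) of 7 of the 8 genes called in CA3 between context and home cage, in every CA1 and CA3 library; points are libraries, lines means of 3, and open circles mark replicate 2 of context and home cage. In CA3, home cage replicate 2 is the highest library of Kcnh3 (66.3 CPM) and Kcnj4 (32.4 CPM) and the lowest home cage library of Kcna1 (209 CPM).

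No potassium channel gene was called by edgeR in CA3 between fear and home cage. At an unadjusted p under 0.05 there were 14 higher and 1 lower (9.32% and 9.55% of all genes), and DESeq2 called 4 higher. Among the smallest p were those of Kcnd2 (0.69, SE 0.18) and Kcnq3 (0.99, SE 0.26), each at an adjusted p of 0.15. Between fear and context none was called in CA3 either, with 12 higher and 1 lower at an unadjusted p under 0.05 (12.2% and 11.3% of all genes) and 4 by DESeq2. Kcnj4 (1.42, SE 0.40) and Kcnh3 (1.19, SE 0.35) were among the first of that list, again at 0.15. Without context replicate 1, 11 genes were called. Without home cage replicate 3, 7 were called between fear and home cage.

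In CA1 no gene was called by edgeR between fear and home cage, while 12 were higher and 2 lower at an unadjusted p under 0.05 (12.1% and 9.88% of all genes) and DESeq2 called 6 higher. The smallest p belonged to Kcnq5, at 41.7, 31.8 and 52.4 CPM in home cage and 62.4, 76.3 and 86.5 in fear (0.92, SE 0.17, adjusted p = 0.0623, edgeR). Kcnh5 (0.94, SE 0.25, adjusted p = 0.0762) and Kcna2, at 28.1, 13.1 and 29.2 CPM in home cage and 49.6, 41.3 and 52.1 in fear (1.09, SE 0.28, adjusted p = 0.0784), followed. Same-numbered fear and home cage libraries of CA1 deviated together, and a fit blocked on the replicate number called 4 genes, all higher. Without home cage replicate 3, 7 were called, and without home cage replicate 1, 3. Between context and home cage none was called, with 9 higher and 5 lower at an unadjusted p under 0.05 (11.7% and 9.59% of all genes). DESeq2 called 6 higher and 1 lower there. The leaders were Kcnd2, at 190, 131 and 181 CPM in home cage and 258, 285 and 256 in context (0.75, SE 0.18, adjusted p = 0.104), Kcnq5 (0.70, SE 0.17, adjusted p = 0.104) and Kcnc2 (0.57, SE 0.17, adjusted p = 0.113, edgeR). Without home cage replicate 1, 2 genes were called. The 6 CA1 pyramidal markers summed to 555 to 1290 CPM in CA1 home cage and 1230 to 1620 in context. Dentate granule markers summed to 326 to 703 CPM in CA1 home cage and 147 to 501 in context. No marker of these lists was called between these groups. The part of the CA1 pyramidal markers in the changes was not tested. Between fear and context none was called, by edgeR or DESeq2, with 8 higher and 0 lower at an unadjusted p under 0.05 (3.42% and 2.26% of all genes). Kcnc1 (0.48, SE 0.13) and Kcnj4 (0.62, SE 0.23) were among the first, each at an adjusted p of 0.846, and without context replicate 3 1 gene was called.

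In LEC no gene was called in any of the 3 comparisons, by edgeR, by DESeq2 or in any other setting tried. Fear against home cage gave 7 higher and 0 lower at an unadjusted p under 0.05 (3.71% and 3.86% of all genes). Kcnq3 was at 34.7, 34.9 and 35.7 CPM in home cage, 35, 44.4 and 40.2 in context and 61.7, 39.4 and 63.1 in fear (0.62, SE 0.18, adjusted p = 0.527, edgeR). Kcnf1, the leading silent modifier of this region, was at 200, 169 and 167 CPM in home cage, 229, 247 and 232 in context and 261, 206 and 271 in fear (0.44, SE 0.14, adjusted p = 0.564). Kcna1 followed (0.38, SE 0.14, adjusted p = 0.586). Context against home cage gave 3 higher and 0 lower (1.22% and 1.24% of all genes): Kcnf1 (0.38, SE 0.14), Kcna5 (0.70, SE 0.27) and Kcna1 (0.37, SE 0.14). Fear against context gave 3 higher and 0 lower (0.908% and 0.354% of all genes): Kcna2 (0.39, SE 0.15), Kcnq3 (0.45, SE 0.18) and Kcnh7 (0.31, SE 0.14).

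Whether the changes differed between regions was tested directly, by the region by condition interaction of the 36-library fit. No potassium channel gene was called, and neither was any other gene (0% of 17875). At an unadjusted p under 0.05 there were 3 of the 61, among them Kcnk10 and Kcnk1, against 10.2% of all genes. DESeq2's likelihood ratio test called 1. Kcnk10 and Kcnk1 had an adjusted p of 0.477 and Kcnh4 one of 0.485 by edgeR. The calls in MEC are therefore not shown to be particular to MEC. Of the genes that rose there, Kcnq3 had log2 values after fear of 1.03 (CA1), 0.99 (CA3) and 0.62 (LEC), and Kcna2 of 1.09, 0.89 and 0.36, with all fear libraries above all home cage libraries in every region. Kcnh5 was at 0.94, 0.99 and 1.03. Kcnj11, Kcnk4, Kcnk1 and Kcnj10 had their highest value in MEC, at 0.47 to 0.96, against -0.24 to 0.35 in the other regions. The change of Kcnj10 was higher in MEC than in LEC by 0.76 (SE 0.23, unadjusted p = 0.0025, adjusted p = 0.494, edgeR).

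**Figure D5:**
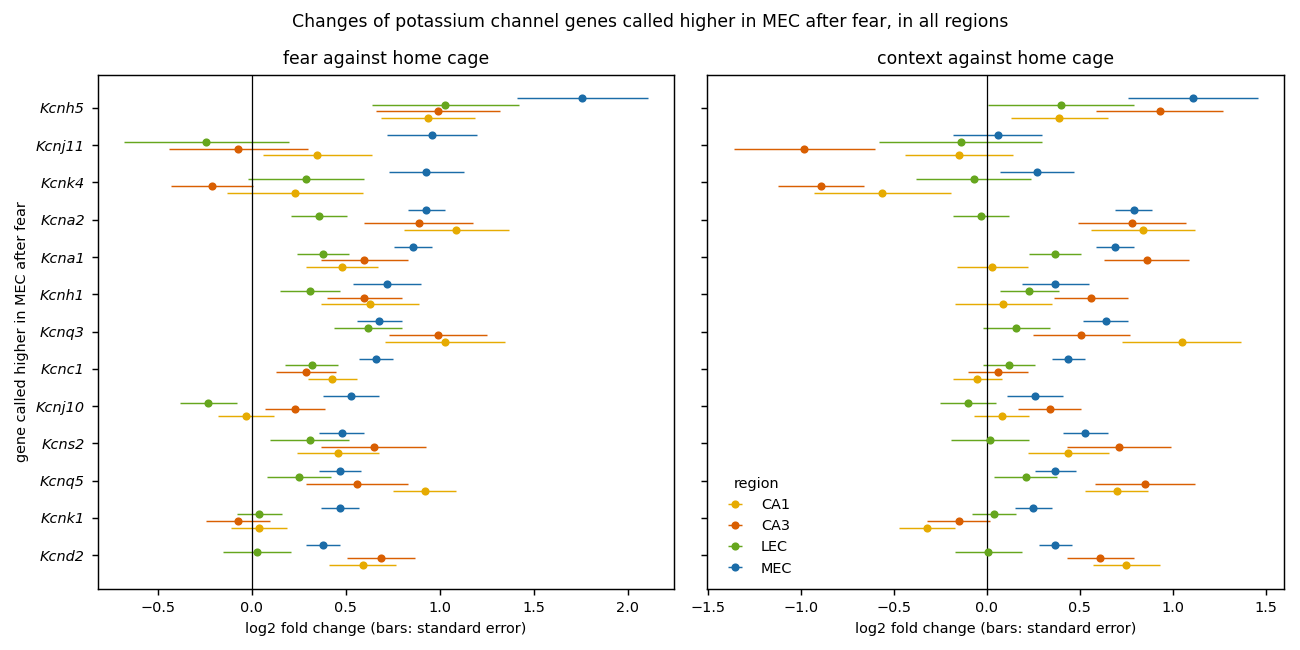
Log2 fold change (horizontal axis, bars are standard errors) of 13 of the 15 genes that rose in MEC after fear, in each region, for fear (left) and context (right) against home cage. After fear (left), Kcna2, Kcnq3 and Kcnh5 lie to the right of 0 in all 4 regions. In the same panel Kcnj10 and Kcnk1 lie between -0.23 and 0.23 outside MEC.

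Accessory genes also rose in MEC after fear. Of 21 tested, 7 rose after fear and none fell, at a median of 0.298, where 5.68% and 3.88% of all genes were called. At an unadjusted p under 0.05 there were 12, in either direction (14.5% of all genes in each). Abcc8, the partner of Kcnj11, rose by 0.82 (SE 0.12, adjusted p = 0.00214), the Kv1 beta subunit Kcnab3 by 0.68 (SE 0.15, adjusted p = 0.0155), the Kv2 partner Amigo1 by 0.36 (SE 0.09, adjusted p = 0.0213) and Abcc9, a second sulfonylurea receptor, by 0.82 (SE 0.20, adjusted p = 0.0254, edgeR). In CA3 after context, 2 of 20 tested were called higher and 1 lower, where 5.77% and 8.13% of all genes were. Dpp10 (0.92, SE 0.25, adjusted p = 0.0459) and Cntnap2 (0.66, SE 0.20, adjusted p = 0.0496), which clusters Kv1 channels on axons, rose. Abcc8 fell by -0.70 (SE 0.17, adjusted p = 0.045, edgeR). Whether the accessory calls hold in the alternative settings was not examined. In the other comparisons of conditions none of the list was called by edgeR. At an unadjusted p under 0.05, the fewest were 0 of 21 in LEC, context against home cage (1.22% of all genes higher, 1.24% lower). The most were 9 of 21 in MEC, context against home cage (8.5% of all genes higher, 6.87% lower).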

How the data were processed

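The files hold raw read counts per gene, which the authors made with Trimmomatic 0.33, STAR 2.7.10b (mm10) and HTSeq 2.0.1, per the submitters' processing notes, from polyA libraries (TRIzol, TruSeq Stranded mRNA), per the labels' protocols. For counting, neither strand setting nor annotation is given in the sources used here: 26 of the 61 expressed genes overlap a gene on the other strand and 10 one on the same strand, which makes their counts uncertain. The deposited counts of the 36 single-library files equalled the columns of the series table. Of its 37315 genes, 95.2% matched GENCODE M21.

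Counts were filtered with filterByExpr, normalized by TMM and tested with edgeR 4.0.16 (robust quasi-likelihood), per region for conditions and over all 36 libraries for regions and the interaction, and adjusted by Benjamini-Hochberg over all genes tested. The procedure was tested on simulated data. R 4.3.3 with DESeq2 1.42.0 and limma 3.58.1 was used for models, and matplotlib 3.10.9, pandas 2.3.3, numpy 2.4.6 and Python 3.11.15 for tables and plots.

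Named with values are, between conditions, up to 8 genes per direction, called and ranked by p (where none passed, the 3 lowest p), between regions the 8 called genes per direction that differed most, the 5 smallest p of the interaction, the leader of each family in each region and the 3 genes on either side of the 1 CPM limit. Some genes this rule covers are counted in all totals but not reported here. Further called genes are named after their values were seen. The members, lists and tests were chosen with earlier results of these data known. The labels give no batch. Replicate numbers were checked as pairs by correlating deviations from group means over 10149 genes: every pair was above 0.1 in 2 of the 12 comparisons of conditions, CA1 fear and home cage (0.304, 0.397, 0.232) and MEC context and home cage (0.604, 0.331, 0.759). Between regions this held for CA1 and CA3 fear (0.211, 0.23, 0.436), CA1 and LEC fear (0.15, 0.537, 0.381), CA3 and LEC fear (0.205, 0.302, 0.304) and LEC and MEC context (0.672, 0.242, 0.639). Other sets were negative throughout, as for LEC and MEC home cage (-0.572, -0.188, -0.796) and CA3 and LEC context (-0.712, -0.172, -0.152). The positive sets alone therefore do not show that same-numbered libraries belong together. The fit of 36 libraries without a block leaves any such link out. Alternatives were RLE size factors, no filter, the block, GC and length offsets (natural splines, 5 degrees of freedom), the block with those offsets, DESeq2, 1 fit of 36 libraries, marker covariates and leaving out libraries.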

Additional observations from a re-analysis of the deposited data

Results flagged for a closer look

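In 1 result all libraries of 1 region moved one way and all libraries of another the opposite way under the same contrast. Kcnk2 after context was lower in every CA3 library (32.8, 30.4 and 28.7 CPM against 35, 38.9 and 33.8, -0.10) and higher in every LEC library (58.6, 58.2 and 67.9 CPM against 57.3, 55.6 and 52.8, 0.14). The difference between these regions was not tested by itself, and the interaction over all regions gave an unadjusted p of 0.24 (adjusted p = 0.578, edgeR). Neither change was called within its region. Groups of 3 were not searched for outlying libraries.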

How the results depend on the processing

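Differences between regions moved least: across all alternatives 43 to 47 genes were called between the entorhinal cortex and the hippocampal fields, 33 to 44 between CA3 and CA1 and 18 to 27 between MEC and LEC, and 45 of 48 named differences were called in every alternative. Of 19 named calls between conditions, 0 were called in every alternative and 8 without every single library. No named gene changed direction. LEC gave 0 in every setting. Where a count moved by over 1.5 times, the cause was not tested. The fit of 36 libraries gave 4 (CA1 context against home cage), 3 (CA1 fear against home cage), 20 (CA3 context), 5 (CA3 fear), 0 (MEC context) and 4 (MEC fear). DESeq2 gave 7 and 6 in CA1, 18 and 4 in CA3 (context and fear against home cage), 11 in MEC context, 4 (CA3) and 2 (MEC) for fear against context, and 1 for the interaction. Without the filter on low counts there were 2 (CA1 context), 1 (CA1 fear), 8 (MEC context) and 1 (MEC fear against context). The offsets for GC content and length gave 1 (CA3 context), 2 (CA3 fear) and 7 (MEC context). The replicate block gave 4 in CA1 fear, and in MEC 13 for context, 25 for fear and 6 for fear against context; the replicate block with offsets gave 15 (CA3 context), 8 (CA3 fear), 11 (MEC context) and 1 (MEC fear against context). In the other comparisons of conditions, not every same-numbered pair was above 0.1, and the labels do not say what the replicate numbers stand for. Between regions, where some groups deviated together, a block gave 47, 39 and 22 against 47, 39 and 21 without it, and 0 for the interaction. The dentate covariate and leaving out the pair context 2 and home cage 2 both gave 0 in CA3 context, and the oligodendrocyte covariate 3 in MEC fear. Leaving out 1 library gave 0 to 2 (CA1 context), 0 to 7 (CA1 fear), 0 to 1 (CA1 fear against context), 0 to 21 (CA3 context), 0 to 7 (CA3 fear), 0 to 11 (CA3 fear against context), 1 to 6 (MEC context), 8 to 26 (MEC fear) and 0 to 2 (MEC fear against context). With a limit of 0.5 or 2 mean CPM, 66 or 57 genes were expressed.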
